A study of Mus musculus with 6 samples.

Results

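The 10 genes described here encode small leucine-rich proteoglycans, secreted proteins of the extracellular matrix built around a chain of leucine-rich repeats. They are Aspn (asporin), Dcn (decorin), Bgn (biglycan), Lum (lumican), Fmod (fibromodulin), Ogn (osteoglycin), Omd (osteomodulin), Prelp, Kera (keratocan) and Epyc (epiphycan), out of 19938 genes with a value. Each was found in the deposited table by its gene symbol, and each had exactly 1 probe set, a group of array probes summarized to a single value. The RNA came from immortalized neural precursor-like cells derived from brains of C57BL/6J mouse embryos at day 13.5. The cells were either wild type for Lgi1 or Lgi1 knock-out, which the series describes as a homozygous deletion, and both kinds were kept, once immortalized, in RPMI medium with 1% fetal bovine serum. Lgi1 encodes a secreted neuronal protein linked to epilepsy. There were 3 arrays (Affymetrix Mouse Gene 1.0 ST) for each genotype, and the labels name neither the number of embryos or cell lines behind them nor the agent used to immortalize the cells. The p-values thus rest on the spread among these arrays, part or all of which may be technical.

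The family is sorted into classes by sequence. Class I (decorin, biglycan, asporin) and class II (fibromodulin, lumican, PRELP, keratocan, osteomodulin) proteins bind collagen and help to set the width and spacing of collagen fibrils, and decorin and biglycan also hold growth factors such as TGF-β. Decorin and biglycan carry chondroitin or dermatan sulfate chains, whereas fibromodulin, lumican, keratocan and osteomodulin can carry keratan sulfate. In the brain several of these genes are known mainly from the meninges and from cells along blood vessels rather than from neural progenitors.

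Of the 10 genes, 7 rose in knock-out cells, none fell and 3 did not pass, and each of the 7 measured rises was at least 2-fold. The rises of Aspn, Fmod, Omd and Lum started from background, a level set below. Against that level the rise of Lum was at least 1.21-fold and thus not shown to reach 2-fold. Here and below, a change is called at a limma adjusted p under 0.05, with Benjamini-Hochberg adjustment over all 19938 genes, and a difference is the knock-out mean less the wild-type mean in log2 units, given with its moderated SE. The same threshold called 31.6% of all genes, 14% as higher and 17.6% as lower, while 3.05% were called and at least 2-fold higher and 2.27% at least 2-fold lower. No member was lower at an unadjusted p under 0.05 either, and the count of 7 held in limma with each array left out in turn. The median difference was +1.80 over the 10 genes and −0.01 over all genes. The 3 knock-out arrays lay above the 3 wild-type arrays for 8 members and below them for none, against 18.5% and 23.7% of all genes. For 1 of the 8, Epyc, the gap was negligible (highest wild-type value 4.72187, lowest knock-out value 4.72198), and it did not pass. By class, 2 of 3 members of class I, 4 of 5 of class II and 1 of 2 of class III rose.

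**Figure D1:**
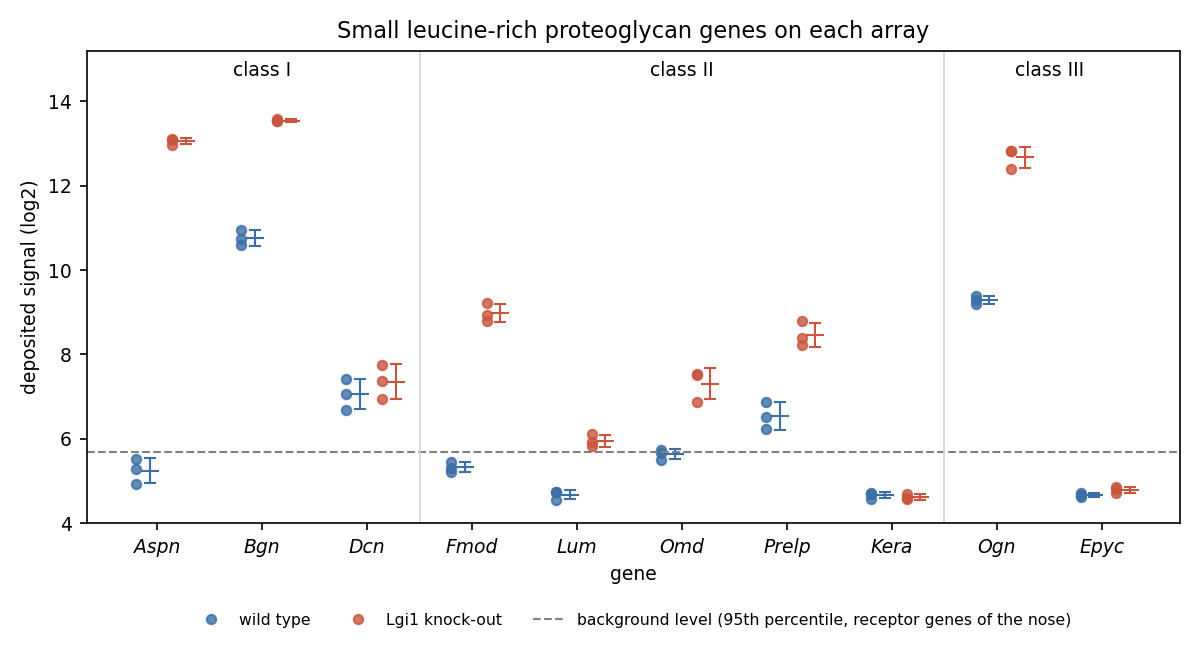
Deposited log2 signal (y axis) of the 10 genes (x axis, grouped by class) on the 3 wild-type (blue) and 3 knock-out (red) arrays, with the mean and SD beside the points. The dashed line is the background level of 5.68. Knock-out points lie above wild-type points for Aspn, Bgn, Fmod, Lum, Omd, Prelp and Ogn. Those of Epyc, below the line, are barely apart, and those of Dcn and Kera overlap.

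Signal of genes that are not expressed sets how far a fold change can be read. As a gauge, 1194 genes for olfactory and vomeronasal receptors, which serve smell, were used. The 95th percentile of their mean log2 signals was 5.68, called the background level here. Of the 10 genes, 8 lay above it in at least 1 genotype, and Kera and Epyc lay below it in both. Among the 11653 genes above it in at least 1 genotype, 22% were called higher and 49.7% were called in either direction. Where only 1 genotype lay above this level, a lower bound of the fold change was also computed against it. A higher signal cannot separate more cells of a type from more RNA per cell.

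Aspn showed the largest difference of the class I genes and of the whole family. Asporin is a collagen-binding protein of cartilage, periodontal ligament and tendon that has a stretch of aspartic acid near its start. Its log2 signal (probe set 10405047) was 4.94, 5.51 and 5.29 in the wild type, compared with 13.09, 13.11 and 12.97 in the knock-out. All wild-type arrays were under the background level and all knock-out arrays far over it. The means were 5.25 ± 0.29 and 13.06 ± 0.08 (SD, n = 3 each), a difference of +7.81 (SE 0.12, limma adjusted p = 3.3e-11); like that of Aspn, the similarly large rises of Xist (+7.80) and Sfrp2 (+7.82) started from wild-type means under background. Against the background level the rise was at least 166-fold.

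Bgn, which encodes biglycan, a close relative of decorin with chondroitin or dermatan sulfate chains, was measured above background on every array. Its log2 signal was 10.96, 10.58 and 10.73 in the wild type, set against 13.53, 13.53 and 13.58 in the knock-out. The knock-out arrays were higher and closely alike. The difference was +2.79 (SE 0.09, 95% interval 2.59 to 2.99, limma adjusted p = 4.4e-09), or 6.91-fold. Bgn lies on chromosome X, and Xist, the RNA of the inactive X chromosome, rose from a mean log2 signal of 4.64 to 12.44. Of 739 genes tested on chromosome X, 86 were called higher (11.6%) and 174 lower, with a median difference of −0.03. Over all genes 14% were called higher and 17.6% lower. The part of chromosome X in the rise of Bgn was not tested.

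Dcn, the gene of decorin, which binds collagen fibrils and TGF-β, did not pass. Its log2 signal was 6.69, 7.06 and 7.42 in the wild type, compared with 7.37, 7.76 and 6.94 in the knock-out. The genotypes overlapped, and both lay above the background level. The difference of +0.30 (SE 0.21) had a 95% interval of −0.17 to 0.76 and a limma adjusted p of 0.36. At that SE a difference of about 0.61 would have been needed to pass. The interval of Bgn lies wholly above that of Dcn.

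In class II, Fmod had the largest rise. Fibromodulin binds collagen fibrils and the enzyme that cross-links them, and carries keratan sulfate. Its log2 signal was 5.45, 5.22 and 5.31 in the wild type, set against 8.80, 9.22 and 8.94 in the knock-out. Wild-type arrays were all under the background level, and the difference was +3.66 (SE 0.11, limma adjusted p = 2.0e-09), or at least 9.89-fold against that level.

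Prelp encodes a proteoglycan-like protein that links heparan sulfate and collagen at basement membranes. Its log2 signal was 6.23, 6.52 and 6.88 in the wild type, set against 8.22, 8.78 and 8.39 in the knock-out. Every knock-out array exceeded every wild-type array, and both genotypes were above background. Prelp rose by 1.92 (SE 0.17, limma adjusted p = 1.1e-05), or 3.79-fold.

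Omd encodes osteomodulin, a keratan sulfate proteoglycan best known from bone. Wild-type log2 signals of 5.66, 5.50 and 5.73 stood against 7.53, 7.51 and 6.88 in knock-out cells. The third knock-out array was the lowest of its genotype yet above all wild-type arrays. The difference was +1.68 (SE 0.15, limma adjusted p = 1.5e-05), and the rise was at least 3.05-fold against background.

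Lum encodes lumican, which keeps collagen fibrils thin in cornea and skin. Its log2 signal was 4.75, 4.74 and 4.54 in the wild type, set against 5.84, 5.92 and 6.11 in the knock-out. The knock-out arrays were higher but only just above the background level. The measured difference of +1.28 (SE 0.09, limma adjusted p = 1.6e-06) amounts to at least 1.21-fold against that level. Kera, whose product keratocan is a keratan sulfate proteoglycan of the cornea, lay below background in both genotypes (log2 signals of 4.58 to 4.72 and of 4.58 to 4.69, wild type first). Its difference was −0.04 (SE 0.07, limma adjusted p = 0.74).

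Of class III, Ogn rose and Epyc did not pass. Osteoglycin, also called mimecan, is a collagen-binding protein of bone, cornea and vessel wall. Its log2 signal was 9.19, 9.29 and 9.38 in the wild type, set against 12.82, 12.81 and 12.39 in the knock-out. Both genotypes were well above background and did not overlap. Ogn rose by 3.39 (SE 0.11, limma adjusted p = 5.2e-09), or 10.5-fold. Epyc, the gene of the growth plate cartilage protein epiphycan, was under background on all arrays, with log2 signals of 4.67, 4.72 and 4.63 in the wild type, set against 4.81, 4.72 and 4.86 in the knock-out. Its difference was +0.12 (SE 0.06, limma adjusted p = 0.19).

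**Figure D2:**
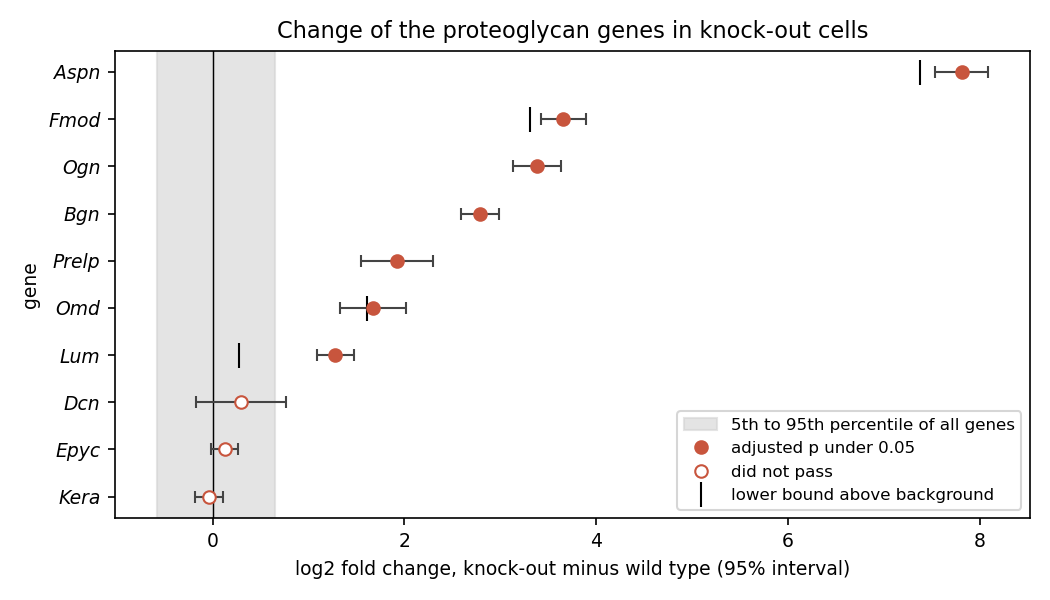
Difference of each gene between knock-out and wild-type cells (x axis, log2, with 95% interval), ordered by size, with genes that passed filled and the others open. Vertical ticks give the lower bound against background, and the grey band holds the 5th to 95th percentile of all genes (−0.59 to 0.65). The 7 filled genes lie to the right of the band, Aspn farthest at 7.81, while the bound of Lum (0.28) lies inside it.

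The family is scattered over few places in the genome, where members sit side by side. In the reference gene table (RefSeq, assembly GRCm38.p6), Aspn, Omd and Ogn follow each other on chromosome 13, Dcn, Lum, Kera and Epyc on chromosome 10, and Prelp and Fmod on chromosome 1, with no other measured gene between them. All 3 members on chromosome 13 and both on chromosome 1 rose, as did 1 of 4 on chromosome 10. Beside Aspn lies Ecm2, a related matrix gene with leucine-rich repeats, which rose by 1.86 (SE 0.09, limma adjusted p = 1.0e-07) from 5.15 to 7.01, at least 1.32 against background. Beside Prelp lies Optc, the gene of opticin, a class III relative known from the eye, which rose by 0.63 (limma adjusted p = 6.6e-05; means 5.31 and 5.94, at least 0.26 against background).

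The genes around these loci were compared with the members. Of the 40 nearest measured genes, 5 on each side of each locus and of Bgn, 5 rose and 5 fell, which is 25% against 31.6% of all genes, with a median difference of 0.00499. Without Ecm2 and Optc, 3 of 38 rose and 5 fell. Of the 40, Ecm2 alone passed with a difference of at least 2-fold. The model of Cenpp, a centromere protein gene, overlaps Aspn, Omd and Ogn in that table, and Cenpp itself rose by 0.27 (limma adjusted p = 0.04).

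**Figure D3:**
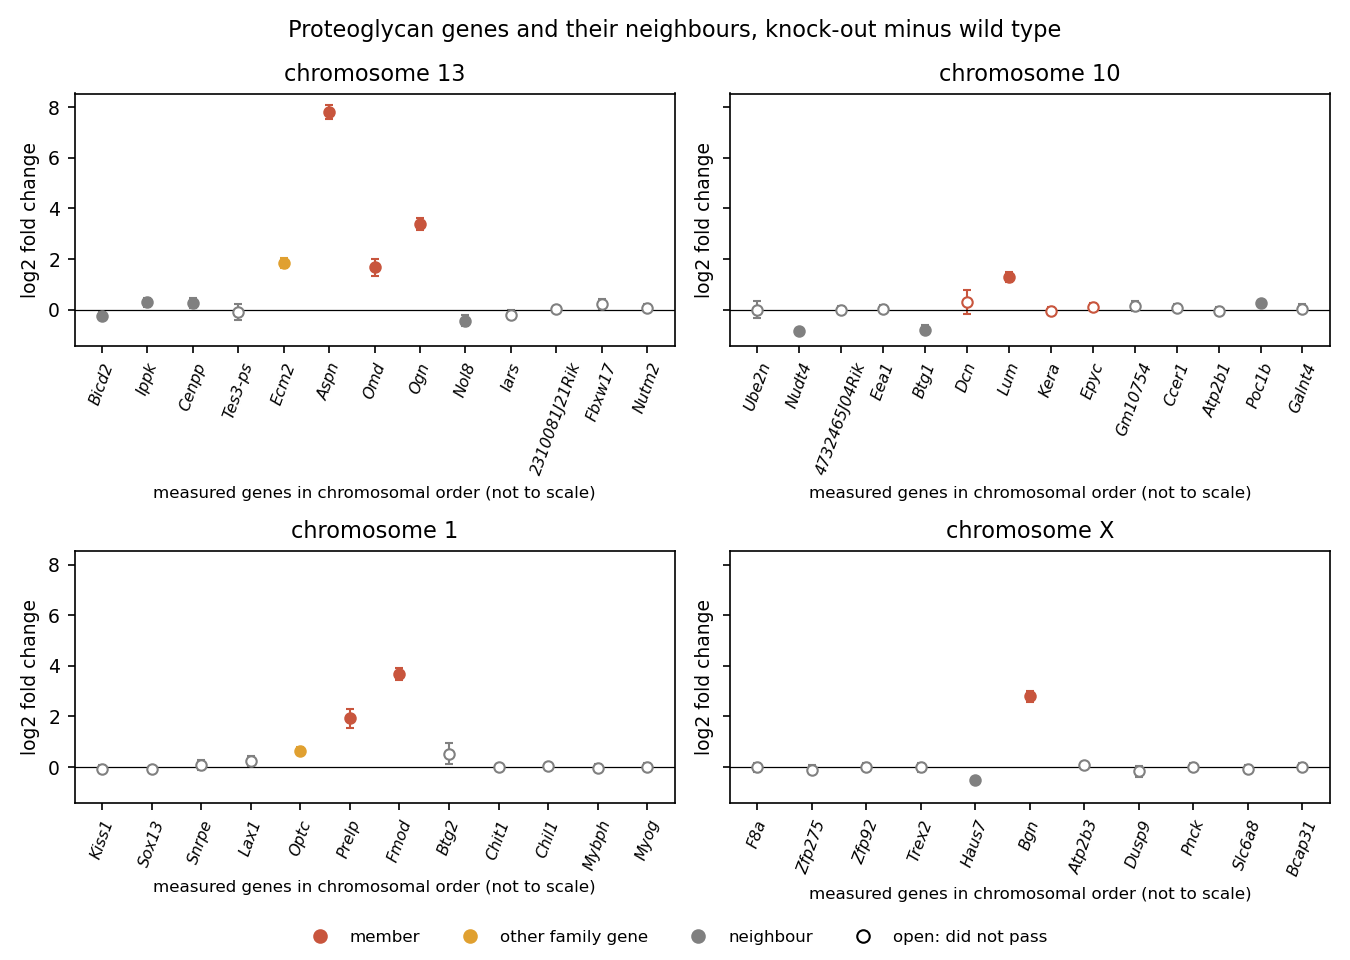
Difference between knock-out and wild-type cells (y axis, log2, with 95% interval) for the members (red), related genes (orange) and neighbours (grey) in chromosomal order, not to scale, with open points for genes that did not pass. On chromosome 13 Ecm2, Aspn, Omd and Ogn stand above flanking genes near 0, and on chromosome 10 Lum is the member that passed.

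Because Aspn, Omd and Ogn are adjacent and rose together, their promoters are shown beside that of Kera, a member under background in both genotypes. Sequences are RefSeq's, build GRCm38.p6, from 250 bases before to 50 after the gene's start, on the plus strand for all 4. The promoter table held 8 of the 10 members (Dcn and Lum had no entry). Capitals mark the letters TATAAA, as in a TATA box, and GGAATG, a motif of TEAD factors, on either strand. TTTATA is TATAAA on the minus strand. These are matches of letters alone, and whether they act as promoter elements was not tested. The windows are chr13:49544193-49544492 for Aspn, chr13:49582212-49582511 for Omd, chr13:49607765-49608064 for Ogn and chr10:97606955-97607254 for Kera.
Aspn: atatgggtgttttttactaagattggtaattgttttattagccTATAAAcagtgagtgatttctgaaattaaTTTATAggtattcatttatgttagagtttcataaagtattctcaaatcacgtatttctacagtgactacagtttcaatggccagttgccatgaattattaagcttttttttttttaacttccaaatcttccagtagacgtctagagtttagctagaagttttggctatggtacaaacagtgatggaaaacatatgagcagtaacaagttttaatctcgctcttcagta
Omd: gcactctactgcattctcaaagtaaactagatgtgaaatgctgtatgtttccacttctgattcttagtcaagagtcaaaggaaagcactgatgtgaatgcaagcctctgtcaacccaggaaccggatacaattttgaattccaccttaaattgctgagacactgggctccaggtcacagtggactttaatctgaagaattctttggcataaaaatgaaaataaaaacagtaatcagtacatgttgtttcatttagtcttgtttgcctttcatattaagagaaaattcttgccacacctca
Ogn: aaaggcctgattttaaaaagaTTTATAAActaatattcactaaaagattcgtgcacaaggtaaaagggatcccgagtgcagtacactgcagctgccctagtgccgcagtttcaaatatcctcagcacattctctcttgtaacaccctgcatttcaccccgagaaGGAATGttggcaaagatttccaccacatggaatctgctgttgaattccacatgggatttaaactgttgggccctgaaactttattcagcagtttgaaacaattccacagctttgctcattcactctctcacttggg
Kera: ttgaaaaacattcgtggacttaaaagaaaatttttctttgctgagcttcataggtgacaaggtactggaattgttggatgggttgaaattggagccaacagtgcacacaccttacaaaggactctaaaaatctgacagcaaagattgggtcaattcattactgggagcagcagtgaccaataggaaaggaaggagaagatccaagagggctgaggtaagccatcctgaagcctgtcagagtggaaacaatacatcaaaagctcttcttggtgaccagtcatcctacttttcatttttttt

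TATAAA was found in the windows of Aspn and Ogn, against 13.6% of 32851 promoters of the same length. In Aspn it began 207 bases before the start on the plus strand and 178 before it on the minus strand. In Ogn a pair of overlapping matches began 229 and 227 bases before the start. GGAATG was found in Ogn, 86 bases before its start, and in 1 of the windows of Epyc, against 14.7% of all promoters. The motif of AP-1, TGANTCA, occurred in none of the members' windows and in 7.81% of all. The windows of Omd and Kera held none of the 3 motifs. G and C made up 31% of the Aspn window, 37.7% of that of Omd, 42.3% of that of Ogn and 41% of that of Kera, and 52.7% of the median promoter. Among other members that rose, the share was 63.7% for Bgn, 55.3% for Prelp and 51% for Fmod.

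Further genes of the family moved in both directions. Of 7 measured relatives outside the 10 members, 3 rose (Ecm2, Podnl1 and Optc), 1 fell and 3 did not pass, with a median of 0.00282. The share called was 57.1%, against 31.6% of all genes. Podn, the gene of podocan, a class V relative, fell from 8.56 ± 0.06 to 7.11 ± 0.04 (SD, n = 3 each; difference −1.45, SE 0.06, limma adjusted p = 3.6e-08). Podnl1, the podocan-like gene, rose from 5.80 ± 0.19 to 7.42 ± 0.08 (+1.63, SE 0.10, limma adjusted p = 4.8e-07). Chad and Chadl, the genes of chondroadherin and a chondroadherin-like protein, lay under background in both genotypes.

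The collagens that these proteoglycans bind rose in 13 of 16 cases and none fell (81.2% called, against 31.6% of all genes). The other 3 did not pass in limma, none of the 16 was lower at an unadjusted p under 0.05, and the median difference was +1.28. Col1a2, a chain of type I collagen, rose by 5.30 from 6.85 to 12.15, Col6a3, of the type VI microfibrils to which decorin and biglycan bind, by 2.97 (at least 2.85 against background), and Col3a1, of type III collagen, by 2.60.

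Proteases that process or cleave members of the family were listed together with Pcolce and Pcolce2, enhancers of procollagen trimming that are not proteases. This list gave 6 rises, 3 falls and 7 genes that did not pass, with a median of 0.00436 (56.2% called, against 31.6% of all genes). Pcolce, which rose by 0.55, and Pcolce2, which fell, are among the called genes. Of the 16 genes, 7 lay under background in both genotypes. Adamts5 and Mmp2, both known to cut matrix proteoglycans, rose by 6.16 (SE 0.08) and 6.13 (SE 0.09), from wild-type means of 5.75 and 6.18. Pcolce2, an enhancer of procollagen trimming, fell by 1.05 (SE 0.12). Only those 3 of the 16 passed with at least 2-fold.

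Growth factors and receptors that the proteins bind gave 9 rises and 7 falls among 25 measured genes (64% called, against 31.6% of all genes). The median was 0.04, and 6 of the rises and 2 of the falls were at least 2-fold. Those 2 falls were of P2rx7 (−1.43, at least 1.09 against background) and Met (−1.35). Of the 25 genes, 6 lay under background in both genotypes, among them Bmp2 and Kdr, which were called as falls. The integrin chain Itga2, part of a collagen receptor, rose by 5.33 (SE 0.06), Tgfb3, a TGF-β ligand, by 2.31 (SE 0.08) and Egfr, a receptor of decorin, by 1.67 (SE 0.08).

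Among the enzymes that build the sugar chains, called differences were mostly under 2-fold. Most of these genes were above background in at least 1 genotype, and of all such genes 49.7% were called. Of 23 genes for the linker and for chondroitin and dermatan sulfate, 13 rose and 4 fell (73.9% called, against 31.6% of all genes; median +0.23), and 2 passed with at least 2-fold, both downward. Chsy3, a chondroitin synthase, fell from 9.13 to 4.97, under background (−4.16, SE 0.09, a fall of at least 3.45 against background). Xylt1, which attaches the first sugar to the core protein, fell from 8.75 to 6.17 (−2.58, SE 0.10). Xylt2, the other xylosyltransferase gene of the list, did not pass (8.41 in the wild type and 8.42 in the knock-out, limma adjusted p = 0.95). Dsel, an epimerase-like gene of dermatan sulfate, rose by 0.93 (SE 0.09). Of 12 keratan sulfate genes 4 rose and 3 fell (58.3% called, median +0.08), with St3gal1, a sialyltransferase, at +1.73, B4galt4, which extends the chain, at +1.09 and Chst1, a sulfotransferase of keratan sulfate, at −1.11.

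**Figure D4:**
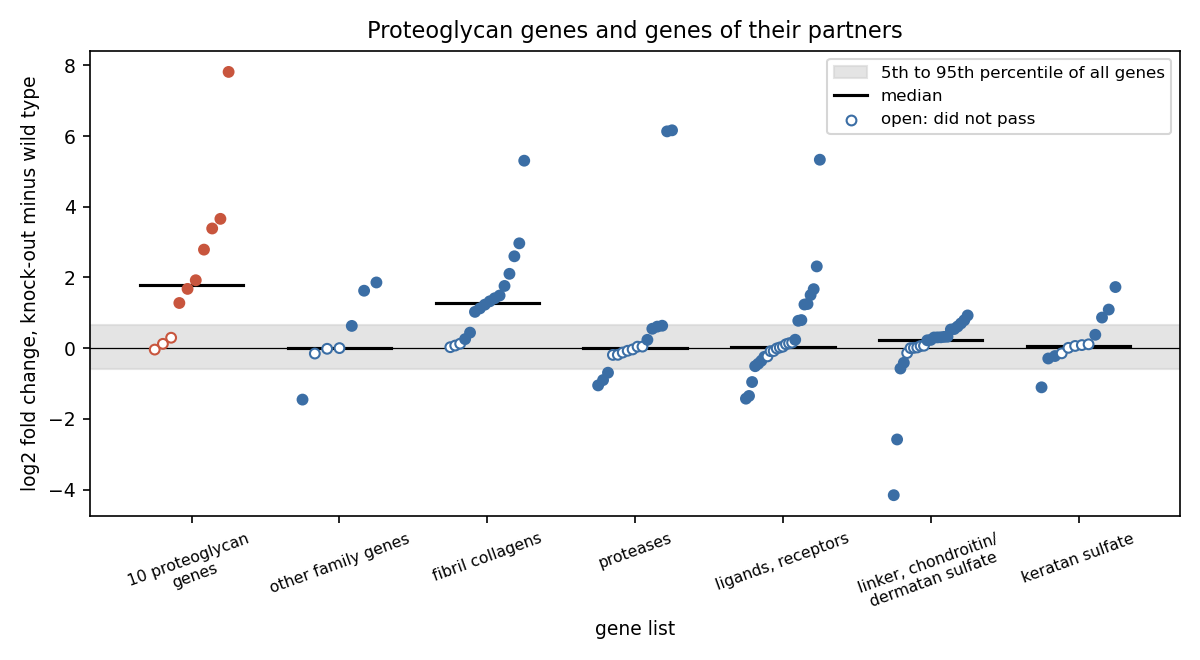
Difference between knock-out and wild-type cells (y axis, log2) of each gene in the 10-gene family and in 6 lists of related genes (x axis), with medians as bars, open points for genes that did not pass and a grey band for the 5th to 95th percentile of all genes. The family (median +1.80) and the collagens (+1.28) have medians above the band, and the other 5 lists have medians inside it.

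The cell type named in the labels was set against its markers. Of 12 measured neural progenitor genes 2 rose and 5 fell (58.3% called, against 31.6% of all genes). Sox2, which maintains neural progenitors, fell from 11.26 to 5.35, below background (a fall of at least 5.58 against it). Nes and Fabp7, further progenitor genes, fell as well (−2.01 and −3.21). Of 25 fibroblast and meninges genes 19 rose and 1 fell (80% called). The matricellular gene Postn rose by 5.77, Col1a2 by 5.30 and Foxc2, a transcription factor of mesenchyme and meninges, by 4.28 (at least 3.90 against background). The gene that fell was Tbx18, from 10.39 to 9.23 (−1.16, SE 0.09, limma adjusted p = 5.6e-06). Ptgds (6.54 and 6.46, wild type first) and S100a4 (6.53 and 6.53) were above background and did not pass. The mean log2 signal over the list was 7.21 to 7.25 on the wild-type and 9.09 to 9.14 on the knock-out arrays. Of the 25, 3 (Aldh1a2, Slc6a13 and Dpt) lay below background in both genotypes. That list shares 3 genes with the collagens, and its part in the rise of the proteoglycan genes was not tested. Markers of cartilage, bone and tendon gave 6 rises of 14 (42.9% called) and no fall in limma, also at an unadjusted p under 0.05. Their list mean was 5.65 to 5.73 in the wild type and 6.63 to 6.73 in the knock-out. Of the 14, 5 lay below background in both genotypes. Scx (7.93 in the wild type and 7.94 in the knock-out) and Mkx (7.03 and 6.92), both above background, did not pass. Tnmd, a tendon gene, rose by 4.91 and Matn3, a cartilage matrix gene, by 2.34, both from wild-type means under background (at least 4.02 and 2.03 against it), and Sox9, a cartilage and neural factor, by 2.56.

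Other markers gave 5 rises and 1 fall of 12 for pericytes and smooth muscle and 4 and 1 of 12 for endothelium. Astrocytes and oligodendrocytes had 1 and 2 of 11, neurons 1 and 1 of 12, and microglia and leukocytes 1 and 1 of 12. In that order 50%, 41.7%, 27.3%, 16.7% and 16.7% were called. The shares were 31.6% of all genes and 49.7% of those above background in at least 1 genotype. In the same order, 4, 8, 8, 9 and 9 genes lay below background in both genotypes. The endothelial fall was that of such a gene, Kdr (means 5.21 and 4.77, wild type first). The largest called changes in these lists were those of Cnn1 (+4.65), Anpep (+2.31) and Rgs5 (+1.29, at least 0.79 against background) for pericytes and smooth muscle. For endothelium they were Erg (+4.60), Tek (+3.14) and Eng (+0.82), all from wild-type means under background (at least 4.29, 2.53 and 0.46 against it). Aqp4 (−2.10, a fall of at least 1.78 against background), Mbp (−0.87) and Cspg4 (+0.82) led the glial list. Syt1 (−0.92, a fall of at least 0.74 against background) and Map2 (+0.90) led the neuronal list, and Tmem119 (+2.12) and Trem2 (−0.23) the microglial list. The list means were 7.42 to 7.46 and 8.22 to 8.27 for pericytes and smooth muscle, 5.02 to 5.14 and 5.74 to 5.81 for endothelium, 5.37 to 5.45 and 5.20 to 5.25 for astrocytes and oligodendrocytes, 5.56 to 5.60 and 5.51 to 5.57 for neurons, and 5.21 to 5.25 and 5.35 to 5.38 for microglia and leukocytes (wild type first). The genotypes also differed in genes of the sex chromosomes. Beside Xist, the Y-linked Eif2s3y (−5.51), Uty (−5.21) and Kdm5d (−3.80) fell. In the wild type the Y-linked genes were above background and Xist was below it, and in the knock-out the reverse held. That is the pattern of male and of female cells, wild type first. Sex thus cannot be told apart from genotype on these arrays, and its part in the rise of the proteoglycan genes was not tested. Lgi1 was below background in both genotypes (4.77 and 4.55, limma adjusted p = 0.07) and gave no check of the labels.

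The genes whose profile over the 6 arrays lay nearest to that of Aspn, by Euclidean distance of deviations from each gene's mean, were Sfrp2, Xist, Car3, Ptprz1 and Pou3f4. The distances were 0.460 for Sfrp2 and for Xist, 1.55 for Car3, 1.74 for Ptprz1 and 1.77 for Pou3f4, in log2 units. With 6 arrays in 2 genotypes the size of the genotype difference largely sets this measure.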

How the data were processed

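Total RNA from 3 samples of each genotype was hybridized to 1-colour arrays. Per the labels' protocols it was extracted with Trizol and turned into biotinylated cDNA from 250 ng. The deposited table holds log2 values for 35556 probe sets, a scale judged from their range (highest value 14.69) and near-equal array medians (6.36 to 6.41). The submitters' processing notes name Partek with no version. How the values were normalized is not stated in any source used here. Array number limits the precision.

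The platform annotation gave 1 gene symbol to 21789 probe sets, several to 1621 and none to 12146. Where a gene had several rows, that of the highest mean over all arrays was kept, leaving 19938 genes, 19856 of them matched by gene ID to the reference table. Values were tested as deposited with limma 3.58.1 in R 4.3.3 (lmFit, eBayes, genotype as the single term), and the steps were tested on simulated data. Where only 1 genotype was above background, the bound is the bright mean minus the dim genotype's mean, with dim arrays raised to the 95th percentile of receptor genes.

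The members and lists were chosen with earlier results of these data known. The text names all members, the 3 largest called changes of each related or marker list used, neighbours with a called change of at least 2-fold, and the 5 genes nearest to Aspn. Optc, Chad, Chadl, Cenpp, Pcolce, Xylt2, Aldh1a2, Slc6a13 and Dpt were named after their values were seen. So were Kdr, Bmp2, P2rx7, Met, Scx, Mkx, Tbx18, Ptgds and S100a4. Deviations from genotype means correlated across genes at 0.19 to 0.29 between arrays of the same replicate number and at −0.18 to −0.0047 otherwise. Deviations sum to 0 within a genotype, so those ranges are not independent of each other. Arrays of the same number may thus be pairs. The reported fit does not use this pairing, and the replicate number as a block is among the alternatives. Protein sequences were not used here.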

Additional observations from a re-analysis of the deposited data

How the results depend on the processing

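The alternatives were the replicate number as a block, quantile normalization, centring of arrays, filters at the 25th percentile and the median, other choices among probe sets, an intensity trend, no moderation, array weights, other thresholds and each array left out. All 7 rises of members kept their direction and call wherever the gene was tested, and Dcn, Kera and Epyc passed in none. Aspn ranged from 7.66 to 7.95 and Dcn from 0.09 to 0.50 (adjusted p 0.092 to 0.80). With the replicate number as a block 7 members rose and 7000 genes were called against 6296, and the block changed no call of a member. Without single arrays 5485 to 5803 genes were called. Among genes above the median 5 members were left to rise, and 2 other family genes were called against 4, since fewer genes were tested. At an additional 2-fold limit 1061 genes were called, with 2 linker and chondroitin enzymes against 17 and 3 keratan sulfate enzymes against 7. The protease list then had 3 called genes against 9, and ligands and receptors 8 against 16. Background limits the folds of Aspn, Fmod, Omd and Lum and leaves Kera and Epyc without a measurable change.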

Other observations

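Several members varied more between arrays of a genotype than most genes. The pooled SD within genotypes was 0.39 for Dcn, 0.31 for Prelp, 0.27 for Omd, 0.21 for Aspn and 0.18 for Ogn on the log2 scale, against a median of 0.094 over the 11653 genes above background. These place Dcn at percentile 99.8 of those genes, Prelp at 99.2, Omd at 98.7, Aspn at 95.5 and Ogn at 92.2. For Aspn the SD was 0.29 in the wild type, where all arrays were under background, and 0.08 in the knock-out. Bgn and Lum, both with an SD of 0.13, stood at percentiles 77.7 and 74.8 and Fmod (0.17) at 89.7. Kera (0.069) and Epyc (0.060), both under background, had small SDs, at percentiles 27.9 and 19.9. This spread was looked at after the values were seen.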
